A study of Mus musculus with 6 samples.

Results

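Serum amyloid A (Saa) genes and 4 further acute-phase genes, Lcn2, Ltf, Hp and Lrg1, were followed in whole colon of NHE3-/- mice and of their NHE3+/+ wild-type littermates. The 8 genes were Saa1, Saa2, Saa3 and Saa4 with those 4, and every probe set whose platform annotation names 1 of them alone was taken. This gave 10 probe sets of 45101 on the array, for 8 genes of 18194 with a probe set of their own. NHE3, encoded by Slc9a3, is the exchanger that takes up sodium in return for protons at the luminal membrane of intestinal epithelium. RNA from dissected colon of mice aged 6 to 8 weeks was read on Affymetrix MOE430 2.0 arrays, 3 arrays per genotype, with no treatment listed. The labels do not give the kind of Slc9a3 allele, the sex of the mice, their housing or how many animals an array stands for. P-values therefore measure the spread between these arrays, which may be technical.

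Acute-phase proteins are secreted proteins whose synthesis rises in inflammation, mainly in liver and also in epithelia, fat and white blood cells. Interleukin-6, interleukin-1, tumour necrosis factor and, in the gut, interleukin-22 drive them through the transcription factors STAT3, C/EBP and NF-kappaB. Serum amyloid A proteins are small lipid- and retinol-carrying proteins, and Saa1, Saa2 and Saa3 are the inducible members while Saa4 is the constitutive member. In the mouse intestine, Saa genes are expressed by epithelial cells and respond to the microbiota. Lipocalin-2 (Lcn2) withholds iron-bearing siderophores from bacteria, and lactoferrin (Ltf) binds iron itself. Haptoglobin (Hp) binds free haemoglobin, and Lrg1 encodes a secreted leucine-rich glycoprotein that modifies TGF-beta signalling.

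The Saa genes are neighbours on mouse chromosome 7, in the RefSeq order Saa3, Saa4, Saa1 and Saa2. The 250 bases before the annotated start of each are shown because 3 of these genes rose together and because Saa1 and Saa2 are nearly the same sequence. They are from RefSeq, build GRCm38.p6, at chr7:46742981-46743230 on the minus strand for Saa1 and chr7:46751583-46751832 on the plus strand for Saa2. Saa3 is at chr7:46715677-46715926 and Saa4 at chr7:46732604-46732853, both on the minus strand. Each is written 5′ to 3′ along its gene, and capitals mark matches to a C/EBP or NF-kappaB motif.
Saa1: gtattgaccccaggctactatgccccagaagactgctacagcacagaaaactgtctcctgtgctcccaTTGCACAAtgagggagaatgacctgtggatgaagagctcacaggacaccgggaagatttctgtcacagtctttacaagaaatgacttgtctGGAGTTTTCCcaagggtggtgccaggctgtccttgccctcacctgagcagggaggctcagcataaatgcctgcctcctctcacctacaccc
Saa2: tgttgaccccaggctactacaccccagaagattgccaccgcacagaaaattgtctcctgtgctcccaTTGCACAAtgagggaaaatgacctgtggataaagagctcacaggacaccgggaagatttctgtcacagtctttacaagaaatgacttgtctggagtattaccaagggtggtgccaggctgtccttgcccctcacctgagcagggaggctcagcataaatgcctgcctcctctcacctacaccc
Saa3: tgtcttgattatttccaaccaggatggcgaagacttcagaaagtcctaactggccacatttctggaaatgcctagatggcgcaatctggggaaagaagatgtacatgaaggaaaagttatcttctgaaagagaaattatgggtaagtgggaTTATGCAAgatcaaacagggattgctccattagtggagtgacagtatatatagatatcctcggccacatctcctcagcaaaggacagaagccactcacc
Saa4: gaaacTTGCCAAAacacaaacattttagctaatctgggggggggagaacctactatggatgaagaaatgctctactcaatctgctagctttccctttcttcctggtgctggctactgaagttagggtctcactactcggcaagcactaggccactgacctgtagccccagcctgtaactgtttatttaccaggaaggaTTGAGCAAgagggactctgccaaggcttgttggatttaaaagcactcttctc

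The Saa1 and Saa2 windows were identical at 238 of 251 aligned positions (94.8%), with 11 mismatches and 2 gaps. Saa3 shared 52.5% with Saa1, and Saa4 shared 47.1%. Motifs were searched on both strands as TTNNGCAA for C/EBP, as GG and TTTCC parted by any 3 bases for NF-kappaB and as TTCNNNGAA for STAT, and no matches overlapped. These letters were chosen with the sequences in view, so the counts set against all windows below carry no test. A C/EBP match was present in 6 of the 7 windows available for these genes, against 9.56% of 32851 RefSeq promoter windows. It was TTGCACAA in both Saa1 and Saa2, beginning 182 and 183 bases before the start, and TTATGCAA in Saa3, 99 bases before it. Saa4 had 2 matches, and Lcn2 (TTGCTCAA) and Ltf (TTGGGCAA) had 1 each. Lrg1 had none. The NF-kappaB letters occurred in Saa1 alone (GGAGTTTTCC, 91 bases before the start), against 4.63% of all windows, and the STAT letters in 0 of the 7, against 7.02%. A match is a description of the letters and says nothing about binding.

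Each deposited value is a signal intensity on a linear scale, and arrays had been scaled to a common trimmed mean. Median signals per array ranged from 97.8 to 121.4, and precision is limited by there being 3 arrays a genotype. Fold changes were taken on log2(signal + 31.4), which understates the change of dim probe sets. A probe set was tested if its mean on this scale reached the 40th percentile, which corresponds to a signal of about 60.2. Of 27022 probe sets tested with limma, 1342 were higher and 1685 lower in NHE3-/- colon at a Benjamini-Hochberg adjusted p under 0.05. With the log2 medians of all arrays set equal, 1596 were higher and 739 lower, and the shift of the middle tested probe set went from -0.10 to 0.01 in log2. No member probe set changed direction between these scalings. As a check of the labels, the brighter Slc9a3 probe set had signals of 5908, 5647 and 6669 in NHE3+/+ and 5970.4, 4266 and 3665 in NHE3-/- colon. Its log2 fold change was -0.42 (SE 0.16, limma adjusted p = 0.120), and a probe set outside the disrupted part of the gene checks nothing. All 15 colon epithelium markers with a probe set reached the filter, among them Epcam at 21888 to 31454. Xist, the RNA of the inactive X chromosome of females, had through its probe set of widest range signals of 2639 and 1929 on NHE3-/- arrays 1 and 2, 12.3 on NHE3-/- array 3 and at most 8 on the NHE3+/+ arrays. By these signals sex differs in part along with genotype. In the fold changes and calls over all arrays, the 2 cannot be fully told apart.

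Of the 10 member probe sets, 8 were tested and 6 of these were higher in NHE3-/- colon, against 4.97% of all probe sets tested (11.2% passed in either direction). They name Saa1 (through both of its probe sets), Saa2, Saa3, Ltf and Lrg1, and 0 were lower, against 6.24%. Ltf and Lrg1 had all 3 NHE3+/+ signals under the level of the filter, so they were tested only because their NHE3-/- signals were high. Without any filter all 10 were tested, and 5 were higher and 0 lower, against 2.39% and 2.50% of 45037 probe sets. The genotypes did not overlap for 6 of the 8 tested probe sets, against 32.3% of all tested. All 6 were higher in NHE3-/- colon, against 12.2%, and 0 lower, against 20.1%. Hp, which the filter kept out of this count, was lower in NHE3-/- colon without overlap. The members, and the gene lists below, were chosen with earlier results of these data known, so their counts beside these shares carry no test. In whole tissue, more cells that make a transcript and more transcript per cell cannot be told apart.

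**Figure D1:**
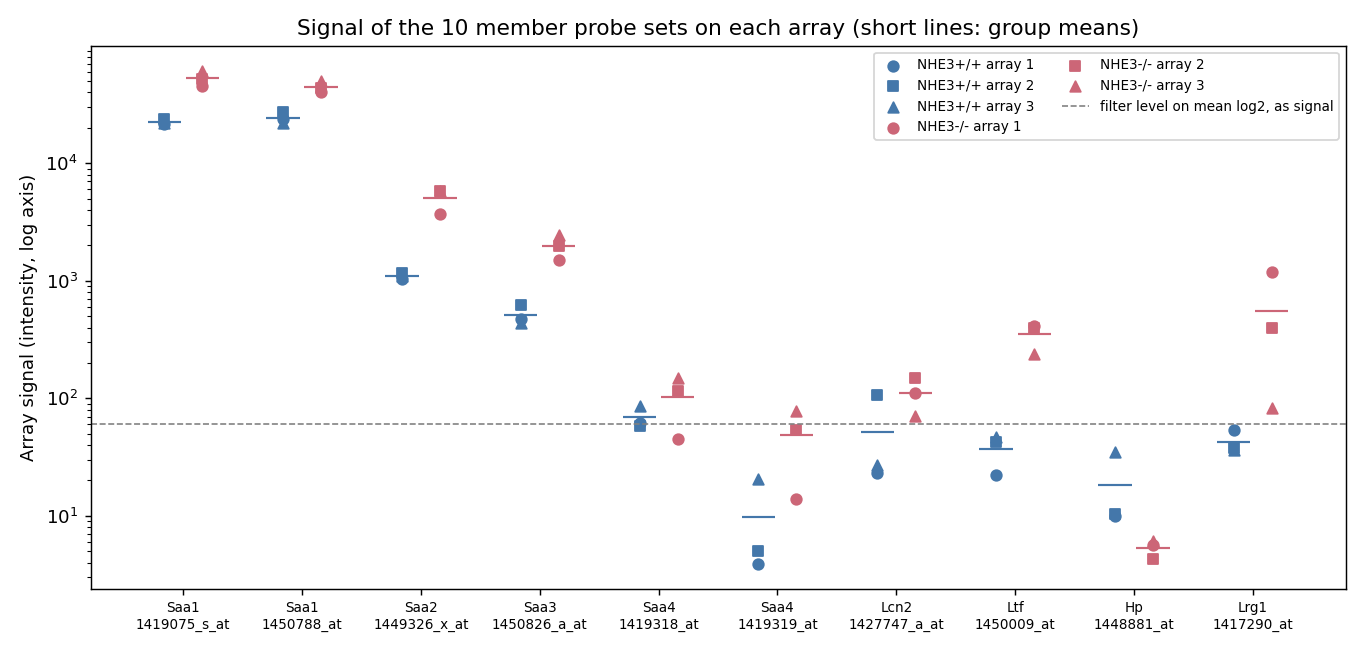
Signal (intensity, log axis) of each of the 10 member probe sets on each of the 6 arrays, with group means as short lines and the filter level of 60.2 as a dashed line. NHE3-/- arrays lie above NHE3+/+ arrays for both Saa1 probe sets, Saa2, Saa3, Ltf and Lrg1, overlap them for Saa4 and Lcn2, and lie below them for Hp, where all 6 signals are under 35.

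Saa1 is the main acute-phase serum amyloid A. Its probe set 1419075_s_at had signals of 21382, 23772 and 21776 on NHE3+/+ arrays 1, 2 and 3, and 45786, 52278 and 61333 on NHE3-/- arrays 1, 2 and 3. Every NHE3-/- array was above every NHE3+/+ array. The mean rose from 22310.1 ± 1282 to 53132 ± 7809 (SD, n = 3 each), 2.38 times, with a log2 fold change of 1.24 (SE 0.12, limma adjusted p = 0.000118). The other Saa1 probe set, 1450788_at, had 23718, 27012 and 22149.5 in NHE3+/+ and 40463, 43667 and 50440 in NHE3-/- colon, again without overlap. Its mean rose 1.85 times, with a log2 fold change of 0.88 (SE 0.11, limma adjusted p = 0.000924).

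These readings were among the brightest on the array. In mean log2 signal both Saa1 probe sets stood above 99.8% of all probe sets, and the highest value anywhere in the data was 68917. Whether the scanner compressed signals at this level was not tested.

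The Saa2 probe set, 1449326_x_at, had signals of 1041, 1172 and 1095 in NHE3+/+ and 3716, 5767 and 5814 in NHE3-/- colon. The lowest NHE3-/- array was far above the highest NHE3+/+ array. The mean rose from 1103 ± 65.9 to 5099 ± 1198 (SD, n = 3 each). This is a log2 difference of 2.15 (SE 0.16, limma adjusted p = 2.79e-05).

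Probe set names and sequences place a limit on telling Saa1 from Saa2. The annotation assigns 1419075_s_at to Saa1, but the transcript it cites belongs to Saa2 in RefSeq, as does the transcript cited for the Saa2 probe set. Only 1450788_at cites a transcript of Saa1. In Affymetrix naming, _s_at marks probes shared by several transcripts and _x_at marks probes that may bind others. The values of these 3 probe sets are given as annotated, and the share of each gene in them was not tested.

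Saa3, a serum amyloid A of macrophages, fat and gut epithelium, is read by a probe set of its own. Its signals were 469.7, 618 and 437 in NHE3+/+ and 1505, 1961 and 2473 in NHE3-/- colon. No NHE3-/- array came near the NHE3+/+ range, and the mean rose from 508 ± 96.3 to 1980 ± 485 (SD, n = 3 each). The log2 fold change was 1.88 (SE 0.19, limma adjusted p = 0.000177).

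Saa4, which lies between Saa3 and Saa1, was dim in both genotypes. Probe set 1419318_at had 62.2, 58.1 and 86.1 in NHE3+/+ and 44.8, 116 and 148 in NHE3-/- colon. The lowest of all 6 values was in NHE3-/- array 1 and the highest in NHE3-/- array 3, so the groups overlapped. The log2 fold change was 0.34 (SE 0.36, limma adjusted p = 0.580), with a 95% interval from -0.45 to 1.14. This interval reaches below 0 and also includes the change of the Saa1 probe set 1450788_at (0.88). It stops short of those of the Saa1 probe set 1419075_s_at (1.24), Saa3 (1.88) and Saa2 (2.15).

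A further Saa4 probe set, 1419319_at, was under the filter. It had 3.9, 5 and 20.4 in NHE3+/+ and 14, 53.3 and 77.9 in NHE3-/- colon, with NHE3-/- array 1 inside the NHE3+/+ range. Tested without the filter, its log2 fold change was 0.89 (SE 0.36, limma adjusted p = 0.213).

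**Figure D2:**
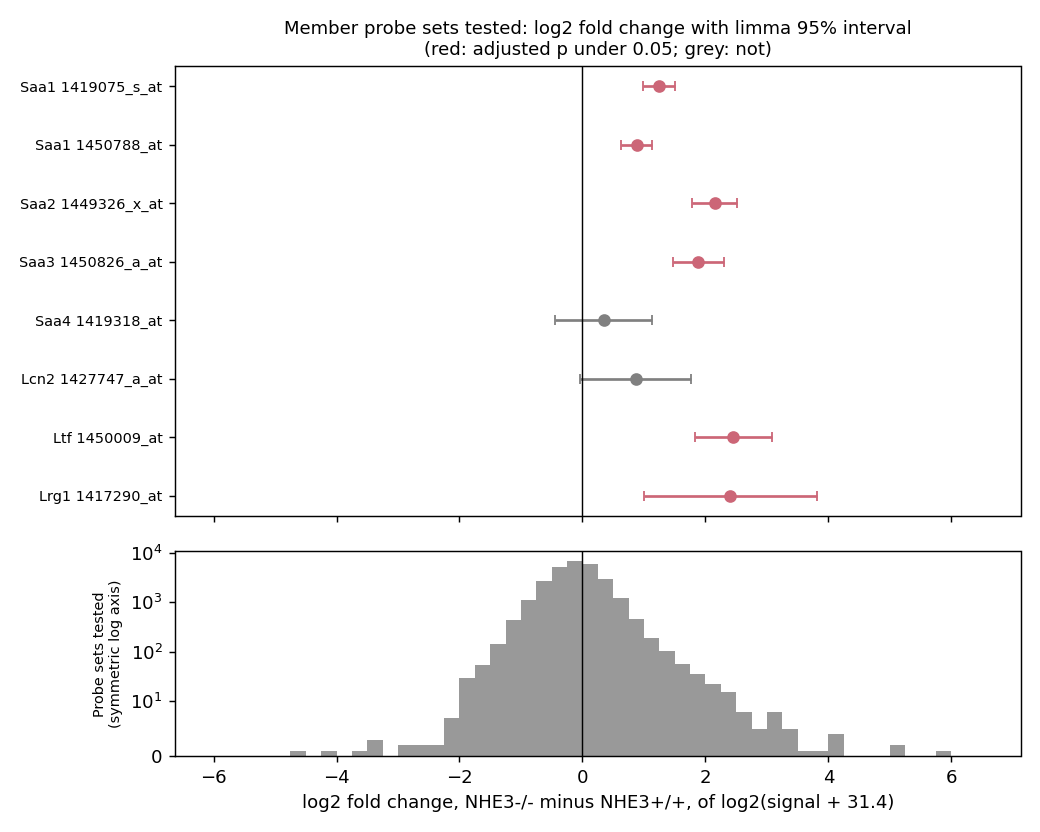
Log2 fold change (NHE3-/- minus NHE3+/+) with the 95% interval from limma for the 8 member probe sets tested, above the distribution of all 27022 tested probe sets on the same axis (counts on a symmetric log axis). Intervals of Saa1, Saa2, Saa3, Ltf and Lrg1 lie above 0, those of Saa4 and Lcn2 include it, and Lrg1 has the widest.

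Ltf, lactoferrin, is held in the secondary granules of neutrophils and is also secreted by glandular epithelia. Its signals were 22.1, 42.7 and 47.2 in NHE3+/+ and 409.9, 399 and 239 in NHE3-/- colon. The lowest NHE3-/- value was several times the highest NHE3+/+ value, and the mean rose from 37.3 ± 13.4 to 349 ± 95.8 (SD, n = 3 each). The log2 fold change was 2.45 (SE 0.29, limma adjusted p = 0.000479). Its size depends on the pseudocount, since the NHE3+/+ signals lie near it, and was 2.93 with a pseudocount of 10 and 1.69 with 100, both called.

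Lrg1 gave the least even response. Its signals were 54, 38.1 and 36.5 in NHE3+/+ and 1194, 398 and 82.1 in NHE3-/- colon. All 3 NHE3-/- arrays exceeded the NHE3+/+ range, but array 1 was far above array 3. The log2 fold change was 2.40 (SE 0.64, limma adjusted p = 0.0357), and the call was lost when any array other than NHE3-/- array 3 was left out. Without NHE3-/- array 1 the log2 fold change was 1.58 (adjusted p = 0.0887), and without each of the other 4 the adjusted p was 0.0653 to 0.104. Without NHE3-/- array 3 it was 3.30 (adjusted p = 0.00116). Its adjusted p lay between 0.00116 and 0.118 across the alternatives.

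Lcn2, lipocalin-2, was dim and did not pass. Its signals were 23, 106 and 27.2 in NHE3+/+ and 112, 149 and 71.4 in NHE3-/- colon. NHE3+/+ array 2 lay above NHE3-/- array 3, so the groups overlapped. The log2 fold change was 0.87 (SE 0.41, limma adjusted p = 0.196), with a 95% interval from -0.03 to 1.77. Without NHE3+/+ array 2 it was 1.30 (adjusted p = 0.0687), the lowest adjusted p of any alternative, and the highest was 0.416.

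Hp, haptoglobin, was under the filter. It had signals of 9.9, 10.3 and 34.9 in NHE3+/+ and 5.6, 4.3 and 6.1 in NHE3-/- colon. The NHE3-/- arrays were the lower, without overlap, at levels where only 5.75% of probe sets had a lower mean. Tested without the filter, its log2 fold change was -0.40 (SE 0.25, limma adjusted p = 0.431).

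The 3 NHE3-/- arrays did not rank alike for all members. Array 3 was the highest and array 1 the lowest of them for both Saa1 probe sets, Saa2, Saa3 and both Saa4 probe sets. Array 3 was the lowest for Ltf, Lrg1 and Lcn2. On the log2 scale and relative to the NHE3+/+ mean, Saa3 stood at 1.52, 1.90 and 2.23 on arrays 1, 2 and 3, and Lrg1 at 4.05, 2.54 and 0.62. Arrays 1 and 2 also carried the Xist signal that array 3 and all NHE3+/+ arrays lacked. The part of sex in this difference, and in the member fold changes over all arrays, was not tested. With NHE3-/- array 3 alone against NHE3+/+, where the lone array is taken to be as variable as the rest, 5 member probe sets were called. In that fit the log2 fold change was 2.37 for Saa2, 2.23 for Saa3 and 1.99 for Ltf, while Lrg1 and Lcn2 fell under the filter. Without NHE3-/- array 3, 6 were called.

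**Figure D3:**
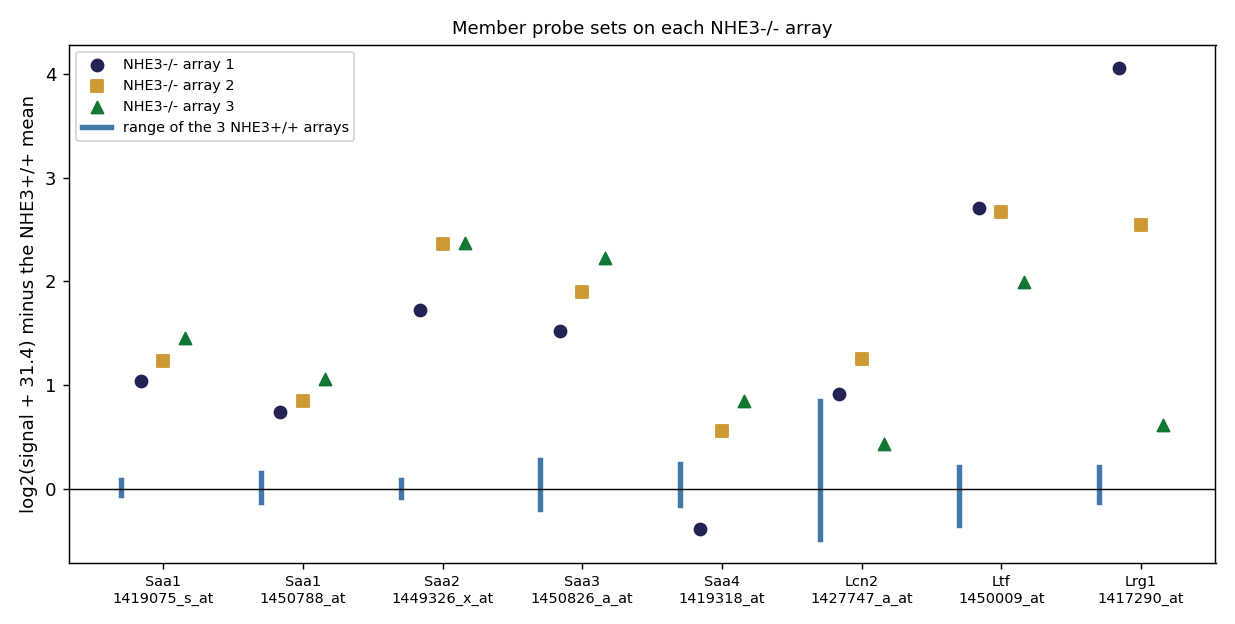
Log2(signal + 31.4) of each tested member probe set on NHE3-/- arrays 1, 2 and 3, minus the NHE3+/+ mean, with the range of the 3 NHE3+/+ arrays as a blue bar. Array 3 is highest for the Saa probe sets and lowest for Lcn2, Ltf and Lrg1, where Lrg1 spans 0.62 to 4.05.

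Upstream of these genes, 5 of 12 acute-phase cytokines with a probe set of their own could be tested, 1 rose and 0 fell (limma, with 3 above and 0 below at an unadjusted p under 0.05). Over all genes with a representative probe set, 6.38% were higher and 7.51% lower, and their median log2 fold change was -0.07. The cytokine that rose was Il18, an inflammasome product of the epithelium, from signals of 7424, 6198 and 6298 to 11228, 13225 and 12413 (log2 fold change 0.89, SE 0.11, limma adjusted p = 0.000626). Il6, the chief inducer in liver, had signals of at most 12.1 on any array and was not tested. Il1b had 89.3, 98.4 and 61 in NHE3+/+ and 186, 135 and 205 in NHE3-/- colon, without overlap, but did not pass (log2 fold change 0.85, SE 0.27, limma adjusted p = 0.0641). Tnf also did not pass (log2 fold change 1.23, SE 0.50, limma adjusted p = 0.140), with NHE3+/+ array 2 at 230.3 above NHE3-/- arrays 2 and 3. Il22 had no probe set that names it alone and was not analysed here. The list's median log2 fold change was 0.85.

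Among the receptors of those cytokines, 4 of 14 tested rose and 1 fell, with a median log2 fold change of 0.10. Osmr, the oncostatin M receptor, had 66.1, 120 and 52.1 in NHE3+/+ and 281, 235 and 222 in NHE3-/- colon (log2 fold change 1.37, SE 0.27, limma adjusted p = 0.0103), although another Osmr probe set stood at 0.17 and was not called. Tnfrsf1b, a tumour necrosis factor receptor, rose by 0.96, and Ifngr1, a subunit of the interferon-gamma receptor, by 0.80. Il22ra1, the epithelial subunit of the interleukin-22 receptor, rose by 0.72 (SE 0.19, limma adjusted p = 0.0321), and this call was lost in 9 of 15 alternatives. Il1r1, the interleukin-1 receptor, fell by 0.92, and its call was lost in 10 of 15. Il6st, the shared signalling chain gp130, did not pass (log2 fold change -0.98, SE 0.31, limma adjusted p = 0.0678).

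Within the signalling list of kinases, transcription factors and feedback genes of STAT3, C/EBP and NF-kappaB, 8 of 25 tested genes rose and 1 fell, with a median of 0.21. The largest increase was that of Socs3, the feedback inhibitor that STAT3 induces. Its signals were 336, 479 and 567 in NHE3+/+ and 1514, 1702 and 1618 in NHE3-/- colon. No array of either group came near the other, and the log2 fold change was 1.77 (SE 0.17, limma adjusted p = 0.000159). Its other 2 probe sets rose too, by 2.55 and 1.76.

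Cebpd, a C/EBP factor that cytokines induce, had 1015, 1215 and 1027 in NHE3+/+ and 2698, 2733 and 2689 in NHE3-/- colon (log2 fold change 1.30, SE 0.11, limma adjusted p = 7.88e-05). Its dimmer probe set stood at 1.25 and was not called. Cebpb, the related factor most tied to liver acute-phase genes, did not pass (log2 fold change -0.12, SE 0.15, limma adjusted p = 0.631). Its other probe set had 155, 111 and 220.3 in NHE3+/+ and 259.8, 222 and 256 in NHE3-/- colon, without overlap, and did not pass either (log2 fold change 0.56, SE 0.24, limma adjusted p = 0.167). Neither did Stat3 itself (0.31, SE 0.16, limma adjusted p = 0.236), whose other 3 probe sets stood at -0.35 to 0.26. The NF-kappaB inhibitors Tnfaip3 (log2 fold change 1.09) and Nfkbia (0.67) rose, with the other 4 Nfkbia probe sets at 0.58 to 1.05. Irak1, a kinase below the interleukin-1 and Toll-like receptors, fell by 1.14, and this was lost in 5 of 15 alternatives. Its other probe sets stood at -0.47, -0.48 and -0.52, and only the last of these was called. Nfkbiz, an inducible NF-kappaB cofactor, was called in both directions by different probe sets (0.47, 0.71 and -0.62), so it has no settled direction.

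Of 31 other positive acute-phase proteins with a probe set, 16 were under the filter, and of the 15 tested, 8 rose and 1 fell, with a median log2 fold change of 1.24. S100a8 had all its NHE3+/+ signals, and Serpina1b all its NHE3-/- signals, under the filter level of 60.2, so each was tested only through its brighter group. The plasma orosomucoids Orm1, Orm2 and Orm3 and the fibrinogen chains Fga, Fgb and Fgg had signals of at most 43.5 on any array. S100a8, a subunit of the neutrophil and epithelial protein calprotectin, had the largest increase, from 59, 46.2 and 41.2 to 3034, 718 and 1356 (log2 fold change 4.20, SE 0.39, limma adjusted p = 0.000116). Steap4, a metalloreductase induced by inflammation, rose by 2.49, and the metallothioneins Mt1 and Mt2, which bind zinc, rose by 1.84 and 1.68. Cd14, which presents endotoxin to its receptor, rose by 1.51. Serpina1b, a protease inhibitor of liver, fell by 2.03 (SE 0.50, limma adjusted p = 0.0258), and its call was lost in 6 of 13 alternatives.

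Of the 17 tested receptors and partners of the member proteins, 1 rose and 3 fell, with a median of 0.18. Fpr2, a formyl peptide receptor that serum amyloid A engages, had 62.8, 7.1 and 72.2 in NHE3+/+ and 106, 78.4 and 81.6 in NHE3-/- colon, without overlap, but did not pass (log2 fold change 0.73, SE 0.41, limma adjusted p = 0.280). Slc22a17, a receptor for lipocalin-2, also did not pass (log2 fold change 0.67, SE 0.28, limma adjusted p = 0.149). Itln1, an intestinal lectin also described as a lactoferrin receptor, fell by 2.77. Rbp2, a cellular retinol-binding protein of absorptive cells, rose by 1.75, and Rbp4, the retinol carrier of plasma, fell by 1.46. Tgfbr1, a TGF-beta receptor chain, fell by 0.52, but this was lost in 10 of 15 alternatives. Cd163, the macrophage receptor for haptoglobin-haemoglobin complexes, was under the filter, with signals of at most 67.4.

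**Figure D4:**
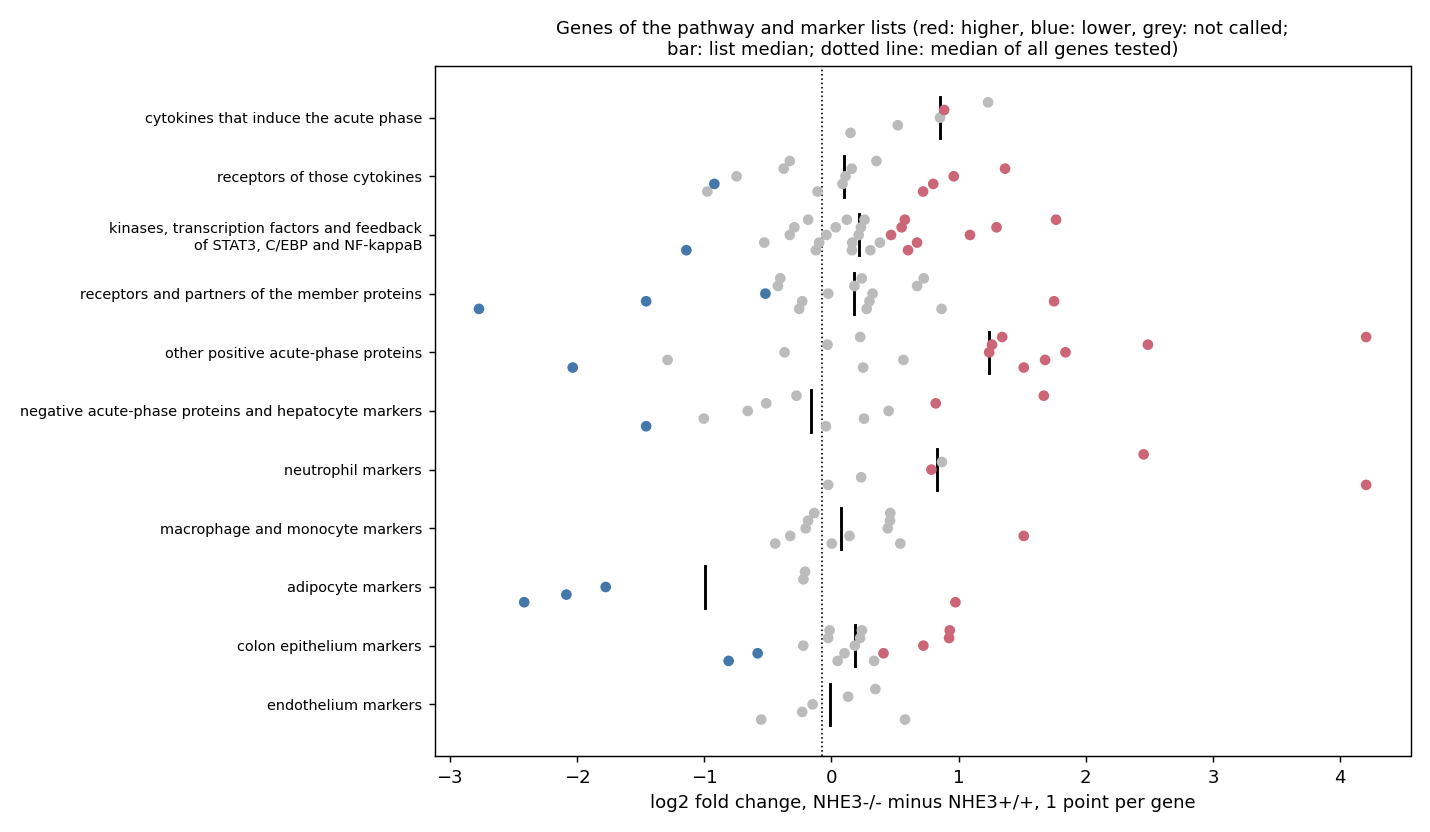
Log2 fold change (NHE3-/- minus NHE3+/+) of each tested gene of the 11 lists through its brightest probe set, with red for higher, blue for lower and grey for not called, the list median as a black bar and the median of all genes tested, -0.07, as a dotted line. Other positive acute-phase proteins have the highest median, 1.24, and adipocyte markers the lowest, -0.997.

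Levels of cell types that also make these proteins were read beside them. Of 19 neutrophil markers with a probe set, 6 were tested and 3 rose, S100a8, Ltf and Cd177. S100a8 and Ltf were tested only through their NHE3-/- signals, and Ltf and Lcn2 are members themselves, so nothing is read from this count. The list's summed signal was 4521 to 5589 in NHE3+/+ and 9437 to 11510.2 in NHE3-/- colon. Cd177 supplied most of this, at 3900 to 4883 and 6920 to 8068. The 14 markers left after taking out Cd177, S100a8, S100a9, Lcn2 and Ltf, a subset chosen after the values were seen, summed to 477 to 692 in NHE3+/+ and 521 to 801 in NHE3-/- colon, with overlap. Among these, the granule genes Mpo, Elane, Prtn3, Ctsg, Camp and Mmp8 and the receptor Cxcr2 were all under the filter. Ngp, another granule gene, had 95.5, 99.1 and 71.7 in NHE3+/+ and 106, 62.2 and 94.3 in NHE3-/- colon, with overlap (log2 fold change -0.03, SE 0.29, limma adjusted p = 0.966). No marker was listed at 0.

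Of 12 tested macrophage and monocyte markers, 1 rose, Cd14, and 0 fell, also at an unadjusted limma p under 0.05, with a median of 0.07. The list's summed signal was 4583 to 7607 in NHE3+/+ and 6290.1 to 8998 in NHE3-/- colon. Of 6 tested adipocyte markers, 3 fell and 1 rose, with a median of -0.997. Fabp4, the fatty acid carrier of fat cells, had 646, 1809 and 378 in NHE3+/+ and 144, 344 and 70.3 in NHE3-/- colon, Car3 fell by 2.42 and Adipoq by 1.77, while Cidec rose by 0.97. A further tested probe set of Fabp4 was called lower (-2.60), and that of Car3 was not called (-1.02). The summed adipocyte signal was 4269 to 8782 in NHE3+/+ and 2839 to 3412 in NHE3-/- colon, with the highest value on NHE3+/+ array 2. The calls were lost in 9 of 14 alternatives for Adipoq, 6 of 15 for Fabp4, 6 of 15 for Cidec and 2 of 15 for Car3, and all of them were lost without NHE3+/+ array 2.

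Hepatocyte markers and negative acute-phase proteins had 2 of 10 tested genes higher and 1 lower, with a median of -0.16. Alb, albumin, had 108, 162 and 88.8 in NHE3+/+ and 79.5, 4.2 and 70.4 in NHE3-/- colon, lower without overlap, and did not pass (limma adjusted p = 0.169). Apoa1, an apolipoprotein that absorptive cells of the intestine also make, rose by 1.67 and Tat, a tyrosine-degrading enzyme, by 0.82. The Apoa1 call was lost in 5 of 15 alternatives, among them those without NHE3+/+ array 2, NHE3-/- array 2 or NHE3-/- array 3, and over all 15 the log2 fold change was 1.08 to 2.22. Its other probe sets were called higher too, at 1.78, 1.82 and 1.99, and were not followed over the alternatives. The list summed to 3572 to 5240.5 in NHE3+/+ and 5308 to 6114 in NHE3-/- colon, without overlap, and this order was that of Apoa1. Without Apoa1, left out after the values were seen, the other 14 genes summed to 3083 to 3154 in NHE3+/+ and 2374 to 2651 in NHE3-/- colon, lower without overlap. These include Rbp4, the gene called lower, at 1442, 1140 and 1234 in NHE3+/+ and 405, 593 and 356 in NHE3-/- colon. By group means, the fall of Rbp4 alone was larger than that of the sum of these 14 genes. That sum therefore shows no fall of the remaining genes as a set, and no test of them was run. Of 15 colon epithelium markers, 4 rose and 2 fell, and their summed signal was 325845 to 393158 in NHE3+/+ and 371575 to 460912 in NHE3-/- colon, with overlap. Among 6 tested endothelium markers, 0 rose and 0 fell, also at an unadjusted limma p under 0.05, and the sums overlapped. The part of these cell types in the member signals was not tested.

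**Figure D5:**
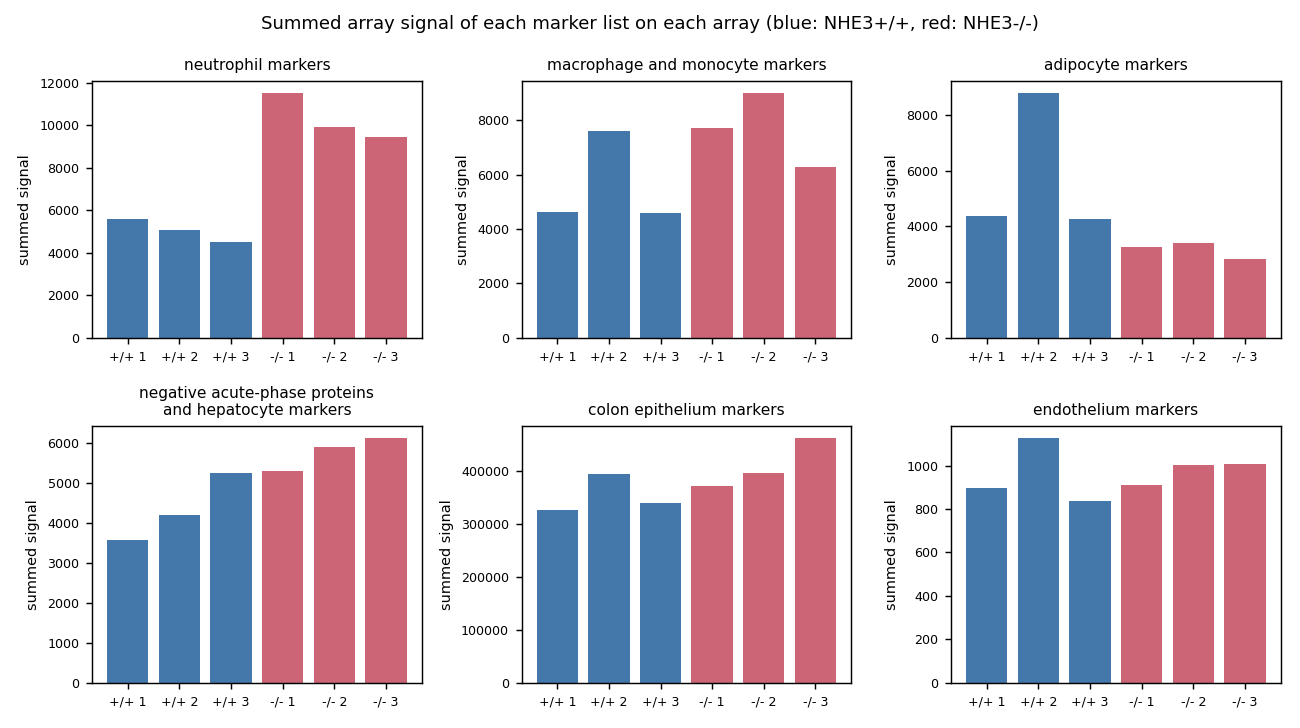
Summed signal of each marker list on each array, with blue bars for NHE3+/+ and red bars for NHE3-/- arrays, each panel on its own axis from 0. Neutrophil sums, mostly Cd177, are higher in NHE3-/- colon without overlap, but overlap without Cd177, S100a8, S100a9, Lcn2 and Ltf (not drawn). Adipocyte sums are lower in NHE3-/- colon without overlap. The hepatocyte sum is higher with Apoa1 and lower without it (not drawn), by less than the fall of Rbp4, which is still in it. Macrophage, epithelium and endothelium sums overlap.

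The mean profile of the 7 member genes tested, on the log2 scale and relative to the NHE3+/+ mean, was 1.65, 1.79 and 1.42 on NHE3-/- arrays 1, 2 and 3. Among 12546 other genes, the profile nearest to it by the mean absolute difference over the 6 arrays was that of Aldh1l1, a folate enzyme, at 0.11. Next came Stom, which encodes the membrane protein stomatin, at 0.12, and Psca, a surface antigen of epithelium, Paqr7, a progestin receptor, and Cd14, each at 0.14. Cd14 had signals of 1389.6, 1368 and 1291 in NHE3+/+ and 3796, 5014 and 3128 in NHE3-/- colon. This measure describes likeness on 6 arrays that fall into 2 genotypes and carries no test. The mean profile averages members that ranked the NHE3-/- arrays differently, so likeness to it need not be likeness to each member. It includes Ltf and Lrg1, which were tested only because their NHE3-/- signals were high.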

How the data were processed

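Biotin-labelled cRNA from Trizol-extracted total RNA of whole colon was hybridised to single-label arrays, per the labels' protocols. The authors deposited 1 intensity value per probe set and array on a linear scale, made with GCOS per the submitters' processing notes, with no version. Every array has a 2% trimmed mean of 500. Detection calls were not used here. From these, log2(signal + 31.4) was computed, 31.4 being the 25th percentile of all values. The 64 control probe sets and those with a mean under the 40th percentile were left out. The 27022 others were fitted with limma 3.58.1 in R 4.3.3 (lmFit, eBayes with trend, two-sided, no term but genotype), with Benjamini-Hochberg adjustment over all of them. The fit was tested on simulated data.

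Genes were named from the platform annotation (34958 probe sets name 1 gene, 932 several, 9211 none), and 34754 of the former matched RefSeq (GRCm38.p6) for current symbols. In lists, a gene was read through its brightest probe set by mean log2 signal. Members and lists were chosen with earlier results of these data known. Named genes were the members, Slc9a3, Xist, up to 5 called genes of largest change per list, ligands, receptors and defining markers that a sentence needed, and the 5 nearest profiles. Stat3, Cebpb, Nfkbiz, Epcam, the orosomucoids and the fibrinogens were named after their values were seen. Alternatives were other pseudocounts (10 and 100), no filter or a filter at the 60th percentile, equal medians, quantile normalization, no trend, the replicate number as a block, each array left out, NHE3-/- array 3 alone, and counting any probe set of a gene.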

Additional observations from a re-analysis of the deposited data

How the results depend on the processing

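Both Saa1 probe sets, Saa2, Saa3 and Ltf kept their direction and their call under every alternative in which they were tested, with log2 fold changes of 1.10 to 1.46 and 0.75 to 1.06 for Saa1, 2.04 to 2.37 for Saa2, 1.71 to 2.23 for Saa3 and 1.69 to 2.93 for Ltf. Saa4 and Lcn2 were called under none. Lrg1 lost its call in 7 of 13 alternatives, those without a filter (adjusted p = 0.0670), without a trend (adjusted p = 0.118) and without any array other than NHE3-/- array 3. With the filter at the 60th percentile Saa4, Ltf, Lrg1 and Lcn2 were under it, and 4 member probe sets were called. Leaving out 1 array gave 5 to 6 called. Over all probe sets, the fit without a trend gave 511 higher and 558 lower, NHE3-/- array 3 alone gave 752 higher, and equal medians gave 739 lower. Leaving out 1 array gave 821 to 1212 higher and 765 to 1372 lower, with 821 higher and 834 lower without NHE3-/- array 3, and 1011 lower without NHE3-/- array 1, 837 without NHE3+/+ array 2 and 765 without NHE3+/+ array 3. Over the lists, 31 genes were higher and 11 lower. Those higher numbered 19 without a trend, 20 with NHE3-/- array 3 alone and 25 to 29 when 1 array was left out. Those lower numbered 3 without a trend, 7 without a filter and 3 to 9 when 1 array was left out. The brighter Slc9a3 probe set had a log2 fold change of -0.72 with NHE3-/- array 3 alone and -0.61 to -0.26 when 1 array was left out, and was called in the former and without NHE3-/- array 1. The dimmer Slc9a3 probe set had 0.28 to 1.07 when 1 array was left out. The causes were not tested.

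Arrays of the same replicate number did not deviate together (correlations of 0.03, -0.04 and 0.00 for numbers 1, 2 and 3). Arrays of unlike numbers had correlations of -0.05 to 0.05. The labels do not say whether the number pairs arrays, and these values cannot exclude it. With the replicate block 1156 probe sets were higher and 1384 lower, 6 member probe sets were called, and the dimmer Slc9a3 probe set was called at 0.76 (adjusted p = 0.0446). Signals of Hp, of one Saa4 probe set and of most neutrophil granule genes were below the filter, so differences at that level were not resolved by 3 arrays per genotype.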
